A study of Mus musculus with 4 samples.

Results

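The membrane-type matrix metalloproteinases (MMPs), gelatinase A (Mmp2) and their inhibitors were followed in mouse skeletal stem cells (SSCs) that lacked or carried Mmp14. The set was chosen by gene symbol, with earlier results of these data known. It held 10 genes of the 22180 genes represented by probe sets with exactly 1 symbol: the membrane-type MMPs Mmp14, Mmp16, Mmp24 and Mmp17, the gelatinase Mmp2, the tissue inhibitors of metalloproteinases Timp1, Timp2, Timp3 and Timp4, and the membrane-anchored regulator Reck. Each of the 10 had a single 1-symbol probe set. A further probe set listed Mmp24 together with another symbol and was not used.

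The cells came from Mmp14-/- mice (Mmp14 knockout, 2 arrays) and Mmp14+/+ mice (wild type, 2 arrays) aged 4 to 6 weeks. All 4 cultures were kept in 3D collagen gel for 48 h before RNA was taken for Affymetrix arrays, and the series design gives the purpose as a screen for transcriptional changes. The labels do not name the deleted part of Mmp14 and do not tie replicates to individual animals or cultures, and the p-values therefore cover only array-to-array spread, possibly of technical origin. The values are log2 intensities as deposited, and every change below subtracts the wild-type mean from the knockout mean of these log2 values.

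MT1-MMP, the product of Mmp14, is a transmembrane collagenase that lets stromal cells cut the fibrillar collagen around them. It also activates the secreted proenzyme of MMP-2: TIMP-2 binds to MT1-MMP at the cell surface, the proenzyme docks on that complex, and a neighbouring free MT1-MMP cleaves it. TIMP-2 and TIMP-3 inhibit MT1-MMP, whereas TIMP-1 inhibits it poorly and acts mainly on secreted MMPs. RECK is a membrane-anchored glycoprotein that restrains several MMPs.

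The 4 arrays had medians between 2.32 and 2.37 log2, and no pair of arrays held identical values. Across the 12708 genes that passed a filter on dim signal (set at 2.34 log2, the median of the mean values of all probe sets), the arrays correlated at 0.994 within knockout, at 0.992 within wild type and at 0.970 to 0.975 between the groups. The stromal label was checked on 8 markers, all of which passed the filter. In knockout 3 were called higher (Pdgfra, Cxcl12 and Cd200), against 6.2% of all genes tested. Lepr was the 1 called lower, against 5.12% of all genes tested, and 4 were not called. Of these 4, the mesenchymal transcription factor Prrx1 averaged 10.2 log2 in knockout and 10.2 log2 in wild type. The receptor gene Pdgfrb averaged 9.76 in knockout and 9.40 in wild type. Thy1 averaged 4.73 in knockout and 5.23 in wild type (limma adjusted p = 0.0572). Grem1 averaged 6.58 in knockout and 7.25 in wild type (limma adjusted p = 0.0595). Markers of blood, bone-resorbing and endothelial cells were mostly dim. Of 7 macrophage and leukocyte markers 4 passed the filter and 0 were called by limma, of 5 osteoclast markers 2 passed and 0 were called, and of 6 endothelial markers 1 passed and 0 were called. The defining markers Ptprc (1.58 in knockout, 1.70 in wild type) and Cdh5 (1.75 in knockout, 2.09 in wild type) lay below the filter. Of 2 measured erythroid and megakaryocyte markers 1 passed and 0 were called. At an unadjusted p below 0.05, 1 of the tested macrophage markers, 1 of the osteoclast markers and 0 of the other 2 were lower. Among these markers the limma adjusted p nearest the threshold was 0.0528, for the osteoclast enzyme gene Acp5 (4.98 log2 in knockout, 5.53 log2 in wild type). All 6 pericyte and smooth muscle markers passed. Rgs5 fell by 1.07 and Mcam rose by 0.69. The summed linear intensity of these 6 was 2779 and 3053 in the knockout arrays, against 3187 and 3129 in the wild-type arrays, and their part in the results below was not tested.

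Of the 10 genes, 9 passed the filter and were tested, and 3 were called by limma at an adjusted p below 0.05, against 11.3% of all genes tested. All 3 were lower in knockout, a direction called for 5.12% of all genes: Mmp14 itself, Timp1 and Timp3. None was called higher by limma, against 6.2% of all genes. At an unadjusted p below 0.05 there were 5, of which Mmp2 and Reck were the 2 higher in knockout. Mmp14 is the deleted gene, and without it 2 of 8 tested genes were called at the adjusted threshold. The calls of Timp1 and Timp3 were each lost when any single array was left out. The other membrane-type MMPs of the set (Mmp16, Mmp24 and Mmp17) were not called, with changes between −0.18 and −0.05 log2. For all 8 tested genes other than Mmp14, the 95% interval of the change lay within a 2-fold change in either direction, as it did for 91% of all genes tested.

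The promoters of the 3 genes that fell are shown as the 250 bases before the annotated start, 5′ to 3′ on the gene's strand, from RefSeq on GRCm38.p6. RefSeq promoter sequences were matched for 7 of the 10 genes. Capitals mark the GC box GGGCGG on either strand, the core of Sp1-type sites. The windows are chr14:54431348-54431597 (plus strand) for Mmp14, chrX:20869916-20870165 (plus strand) for Timp1 and chr10:86300162-86300411 (plus strand) for Timp3.
Mmp14: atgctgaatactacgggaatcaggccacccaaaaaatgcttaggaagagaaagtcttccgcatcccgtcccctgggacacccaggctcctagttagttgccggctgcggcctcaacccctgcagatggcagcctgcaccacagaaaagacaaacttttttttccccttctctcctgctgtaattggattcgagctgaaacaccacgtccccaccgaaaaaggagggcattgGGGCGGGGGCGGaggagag
Timp1: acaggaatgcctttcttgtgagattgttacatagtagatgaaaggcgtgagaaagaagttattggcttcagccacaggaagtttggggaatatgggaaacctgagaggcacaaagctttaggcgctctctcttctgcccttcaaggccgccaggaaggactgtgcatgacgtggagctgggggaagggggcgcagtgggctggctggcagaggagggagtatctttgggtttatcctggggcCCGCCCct
Timp3: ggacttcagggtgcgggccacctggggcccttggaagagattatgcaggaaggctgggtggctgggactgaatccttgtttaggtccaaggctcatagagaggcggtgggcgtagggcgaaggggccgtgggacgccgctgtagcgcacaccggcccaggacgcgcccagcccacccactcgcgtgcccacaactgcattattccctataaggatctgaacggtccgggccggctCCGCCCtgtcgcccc
All 3 windows held a GC box, and 32.7% of the 32851 promoter windows of the same length held one at any position. Mmp14 held 2 abutting copies whose first bases lay 19 and 13 bases before the start. Timp1 held 1 copy at 8 bases and Timp3 held 1 copy at 15 bases, both on the reverse strand. The uncalled genes Timp2, Reck and Mmp24 held 1, 2 and 3 copies, and the untested Timp4 held none. Searched on both strands, the AP-1 motif TGANTCA (in 6.75% of windows) and the TATA box TATAAA (in 12.4%) matched in none of the 7 windows, so no matches of different motifs overlapped. A match describes the letters only.

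The deleted gene was checked first. Mmp14 gave 5.77 and 5.84 log2 in the knockout arrays, against 8.77 and 8.83 log2 in the wild-type arrays. The groups were separated by 2.92 log2, while the replicates differed by 0.07 in knockout and 0.06 in wild type. Mmp14 fell by 2.99 log2 (SE 0.10, 95% interval −3.24 to −2.74, n = 2 per group, limma adjusted p = 0.000278), which left 12.6% of the wild-type intensity. Its change ranked 18 by size among the genes tested. The position of the probe set relative to the deletion is not given in the sources used here, and the signal that remained is no measure of full-length transcript.

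By Euclidean distance between profiles over the 4 arrays, each gene centred on its own mean, the 3 tested genes nearest to Mmp14 were Sp7 (0.52 log2), Bmp3 (0.53) and Arsi (0.55). Sp7 is an osteoblast transcription factor, Bmp3 a bone morphogenetic protein family member and Arsi an arylsulfatase gene. With 4 arrays in 2 groups, this measure mostly ranks genes by the size of their difference between the groups.

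**Figure D1:**
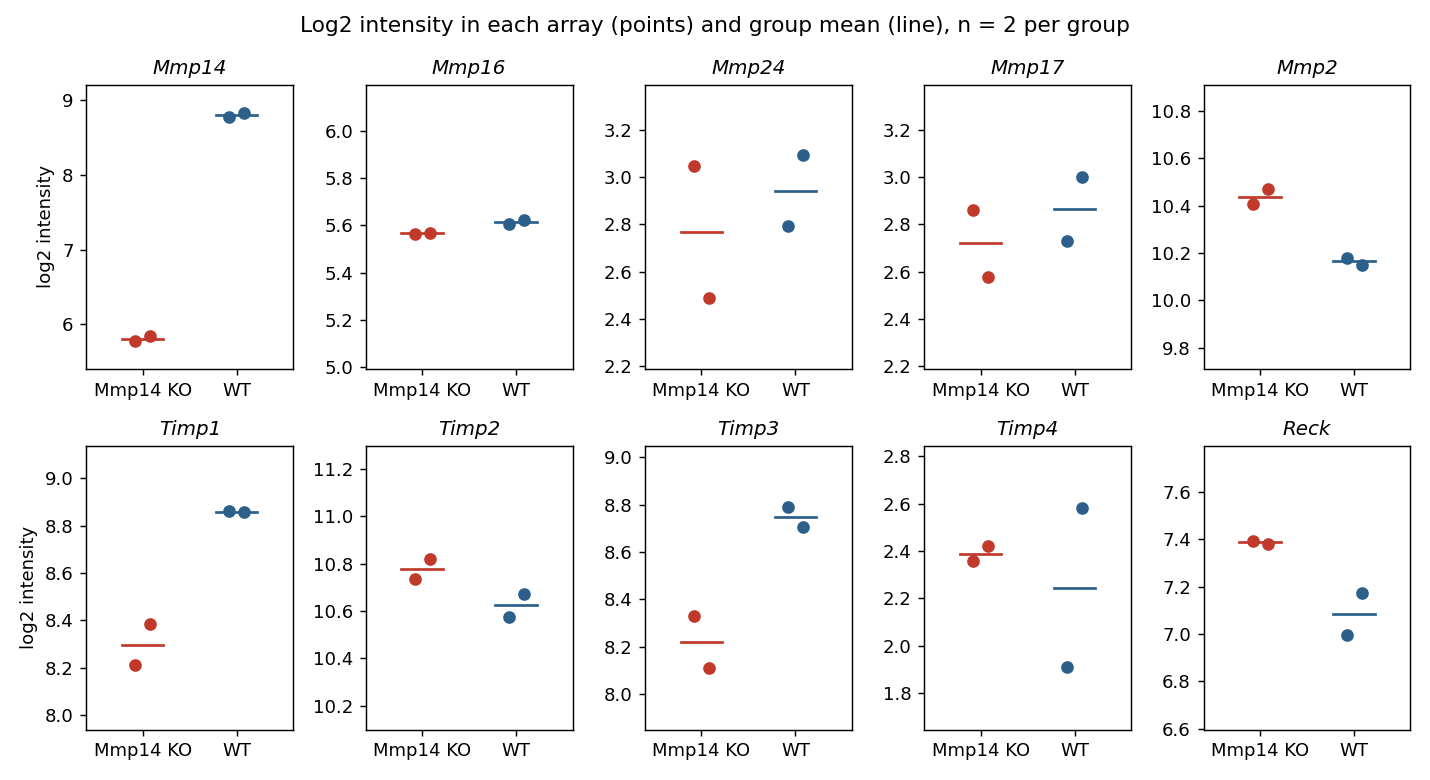
Log2 intensity (y axis) of the 10 genes in each array, with Mmp14 knockout on the left, wild type on the right and the group mean as a line; the y axes span 1.2 log2, except 3.8 log2 for Mmp14. Mmp14, Timp1 and Timp3 sit lower in both knockout arrays, Mmp2, Timp2 and Reck sit slightly higher, and Mmp24, Mmp17 and Timp4 overlap between the groups.

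Mmp16, Mmp24 and Mmp17, the other membrane-type MMPs of the set, did not pass the test in either direction. Mmp16 encodes MT3-MMP, a transmembrane relative of MT1-MMP that can also activate proMMP-2. It gave 5.56 and 5.57 log2 in knockout, against 5.61 and 5.62 log2 in wild type. The groups did not overlap, but they were only 0.04 log2 apart. The change was −0.05 (SE 0.10, 95% interval −0.29 to 0.20, n = 2 per group, limma adjusted p = 0.813). The signal was well above the filter and the replicates were close. An increase of Mmp16 above 0.20 log2 lay outside the interval. The width of that interval rested mostly on the spread estimated over all genes tested (0.12 log2), not on these replicates.

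Mmp24 encodes MT5-MMP, a transmembrane enzyme studied mainly in the nervous system. It gave 3.04 and 2.49 log2 in knockout, against 2.79 and 3.09 log2 in wild type. The arrays overlapped, and the knockout replicates lay 0.56 log2 apart (change −0.18, SE 0.21, 95% interval −0.69 to 0.33, limma adjusted p = 0.64). Without Mmp14 knockout replicate 2 the sign turned, to 0.10. Mmp17 encodes MT4-MMP, which is held at the membrane by a glycolipid anchor in place of a transmembrane segment. It gave 2.86 and 2.58 log2 in knockout, against 2.73 and 3.00 log2 in wild type, and these arrays overlapped as well (change −0.15, SE 0.15, 95% interval −0.52 to 0.22, limma adjusted p = 0.586). Mmp17, with a mean of 2.79, and Mmp24, with a mean of 2.85, lay just inside the filter of 2.34, and Timp4, with a mean of 2.32, lay just outside it. Signal this close to the array median says little about these 3 genes. Another glycolipid-anchored member of the family, Mmp25, averaged 2.08 log2 in knockout and 1.88 log2 in wild type, below the filter. Mmp15 was sought among the other MMP genes below but had no probe set with exactly 1 symbol.

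Mmp2 encodes gelatinase A, the secreted enzyme whose proenzyme MT1-MMP activates. It gave 10.41 and 10.47 log2 in knockout, against 10.18 and 10.15 log2 in wild type. Both knockout arrays were above both wild-type arrays, by 0.23 log2, and replicates differed by 0.06 in knockout and 0.03 in wild type. The change was 0.27 (SE 0.10, 95% interval 0.03 to 0.52, n = 2 per group), a ratio of 1.21, and it missed the threshold (limma adjusted p = 0.147). A variance model with a trend on signal and robust estimation called it (limma adjusted p = 0.0152), and no other alternative did. The arrays measure transcript and carry no value for activation of the proenzyme.

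Among the inhibitors, Timp1 and Timp3 fell, Timp2 and Reck were not called and Timp4 was not tested. Timp1 gave 8.21 and 8.38 log2 in knockout, against 8.86 and 8.86 log2 in wild type. The groups were 0.47 log2 apart, with replicates 0.17 apart in knockout and 0.01 in wild type. Timp1 fell by 0.56 log2 (SE 0.11, 95% interval −0.83 to −0.29, n = 2 per group, limma adjusted p = 0.0288), to 67.7% of the wild-type intensity. Of the genes tested, 89.1% changed by less. The direction held in each alternative, but the call was lost without Mmp14 knockout replicate 1 (limma adjusted p = 0.16), Mmp14 knockout replicate 2 (0.0585), wild type replicate 1 (0.0733) or wild type replicate 2 (0.0808). In these bulk samples, fewer cells of a type and less RNA per cell cannot be told apart.

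Timp1 lies on the X chromosome, and 2 of 4 sex-linked transcripts checked differed between the groups. Xist, transcribed from the inactive X, gave 9.30 and 9.09 log2 in knockout, against 8.45 and 8.48 log2 in wild type (change 0.73, limma adjusted p = 0.0155). Eif2s3y, a Y-linked translation factor gene, gave 5.19 and 5.40 log2 in knockout, against 6.18 and 5.79 log2 in wild type (change −0.69, limma adjusted p = 0.0474). The Y-linked genes Kdm5d (−0.42, limma adjusted p = 0.104) and Uty (−0.25, limma adjusted p = 0.52) were not called, and the Uty arrays overlapped between the groups. The 414 tested X-linked genes had a median change of 0.01 and 5.07% of them were called lower, against a median of −0.0041 and 5.12% lower over all genes tested. The part of sex-linked differences in the change of Timp1 was not tested.

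Timp3 encodes the inhibitor that binds to extracellular matrix and also blocks some ADAM proteases. It gave 8.33 and 8.11 log2 in knockout, against 8.79 and 8.71 log2 in wild type. The groups were 0.38 log2 apart, and the knockout replicates 0.22. Timp3 fell by 0.53 log2 (SE 0.12, 95% interval −0.82 to −0.23, n = 2 per group, limma adjusted p = 0.0443), to 69.3% of the wild-type intensity. Its call was lost without Mmp14 knockout replicate 1 (limma adjusted p = 0.0755), Mmp14 knockout replicate 2 (0.191), wild type replicate 1 (0.115) or wild type replicate 2 (0.0925). It was also lost without the filter on dim genes (limma adjusted p = 0.0689), after quantile normalization (0.0555) and with every probe set in 1 fit (0.215), as was that of Timp1 in the last of these (0.168).

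Timp2 encodes the inhibitor that also serves as the bridge for proMMP-2 activation. It gave 10.73 and 10.82 log2 in knockout, against 10.58 and 10.67 log2 in wild type. The groups did not overlap, but the 0.06 log2 between them was smaller than the difference between replicates in either group. The change was 0.15 (SE 0.11, 95% interval −0.11 to 0.41, n = 2 per group, limma adjusted p = 0.411). A fall of Timp2 like those of Timp1 and Timp3 lay outside its interval, although the differences between these genes were not tested. Timp4 gave 2.36 and 2.42 log2 in knockout, against 1.91 and 2.58 log2 in wild type. The wild-type arrays lay on either side of the knockout arrays, and the gene was not tested.

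Reck gave 7.39 and 7.38 log2 in knockout, against 7.00 and 7.17 log2 in wild type. Both knockout arrays were above both wild-type arrays, by 0.21 log2, and the wild-type replicates lay 0.18 apart. The change was 0.30 (SE 0.11, 95% interval 0.03 to 0.58, n = 2 per group), a ratio of 1.23, and it missed the threshold (limma adjusted p = 0.147). The alternatives gave adjusted p-values from 0.0619 to 0.422 for Reck, and none called it at 0.05.

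**Figure D2:**
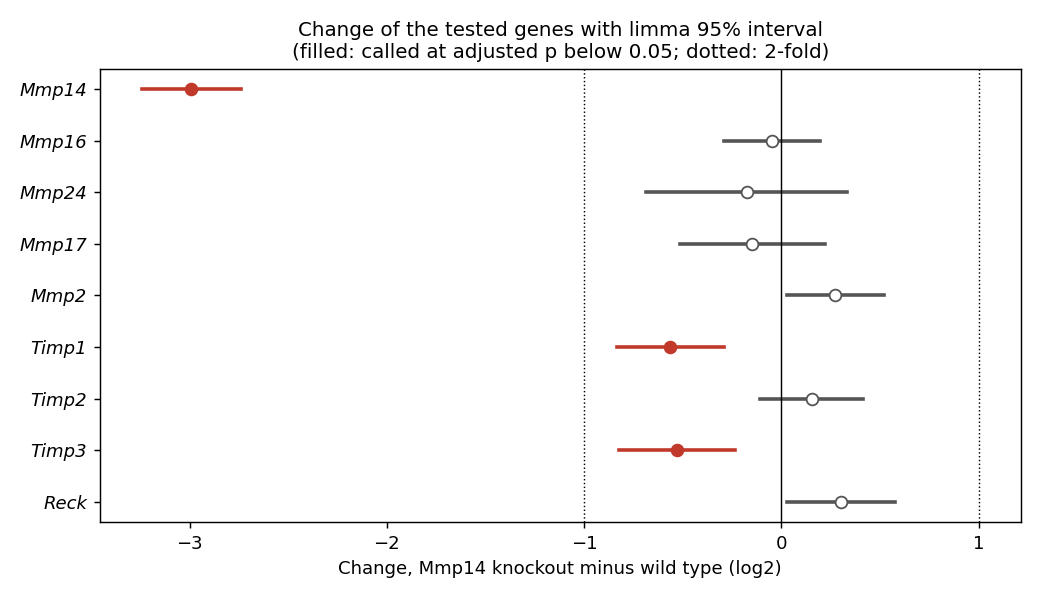
Change of each tested gene (x axis, log2, knockout minus wild type) with its limma 95% interval; filled points passed the test and dotted lines mark a 2-fold change. Mmp14 stands at −2.99, while the intervals of the other 8 genes lie between the dotted lines.

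Of the 9 tested genes, 7 had groups that did not overlap, or 6 of 8 without Mmp14, against 57.8% of all genes tested. In order of change the 9 genes ran from Mmp14 (−2.99) through Timp1 (−0.56), Timp3 (−0.53), Mmp24 (−0.18), Mmp17 (−0.15) and Mmp16 (−0.05) to Timp2 (0.15), Mmp2 (0.27) and Reck (0.30). Differences between neighbours in this order were not tested. Leaving out Mmp14, the median size of change was 0.23 log2 over 8 genes, against 0.18 over all genes tested. Their median signed change was −0.10, against −0.0041 over all genes.

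Genes that act around MT1-MMP were counted in lists chosen from textbook roles, with earlier results of these data known. Over all genes tested, 6.2% were called higher and 5.12% lower, and the median change was −0.0041. Of 22 genes for proMMP-2 activation and surface partners of MT1-MMP, all passed the filter, 2 were higher (6.2% of all genes), 2 were lower (5.12% of all genes) and 18 were not called by limma (median −0.05). The integrin subunit genes Itgb3 (1.34, SE 0.10, limma adjusted p = 0.00172) and Itga2 (1.23, SE 0.10, limma adjusted p = 0.00201) rose, and their calls held when any single array was left out. Itgb3 pairs with the alpha-v subunit in an integrin that binds RGD motifs, and Itga2 forms part of a collagen receptor. Itgb3 gave 6.29 and 6.22 log2 in knockout, against 4.87 and 4.97 log2 in wild type.

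Thbs2 and Cd44 fell in the same list. Thbs2 encodes thrombospondin-2, which promotes uptake of MMP-2 through LRP1 (−0.48, SE 0.10, limma adjusted p = 0.036). Cd44 encodes the hyaluronan receptor that binds MT1-MMP at the cell surface (−0.45, SE 0.11, limma adjusted p = 0.0464). Both calls were lost when any single array was left out, at adjusted p-values of 0.0732 to 0.179 for Thbs2 and 0.0709 to 0.185 for Cd44. Furin, the convertase that removes the MT1-MMP propeptide, was singled out after its values were seen. It gave 8.83 and 8.74 log2 in knockout, against 8.94 and 9.01 log2 in wild type (−0.19, limma adjusted p = 0.3).

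Genes for MT1-MMP traffic and invadopodia, the protrusions where the enzyme is delivered, were counted in the same way. Of 22 tested, 1 was higher, against 6.2% of all genes tested, 0 were lower, against 5.12%, and 21 were not called by limma (median 0.03). At an unadjusted p below 0.05 there were 2 higher and 0 lower. Sh3pxd2b, an adaptor of invadopodia, rose (0.45, SE 0.10, limma adjusted p = 0.0416), and the call was lost when any single array was left out (adjusted p 0.098 to 0.176). The values nearest to it in size were those of Snx27 (0.33), Sh3pxd2a (0.25) and Snap23 (−0.19), none of them called.

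Of 18 other MMP genes, 17 were measured and 7 passed the filter, of which 3 were higher (6.2% of all genes), 2 lower (5.12% of all genes) and 2 not called (median 0.18). The collagenase gene Mmp13 gave 8.10 and 8.50 log2 in knockout, against 5.17 and 4.75 log2 in wild type, and rose by 3.34 (limma adjusted p = 0.000993). Mmp3 gave 3.60 and 3.10 log2 in knockout, against 1.93 and 2.18 log2 in wild type, where it was below the filter. It is counted among the 3 higher genes but passed the filter only through its knockout arrays, so its call adds no support to that count. Mmp23, named after its values were seen, gave 7.60 and 7.73 log2 in knockout, against 8.22 and 8.33 log2 in wild type. It was called lower (change −0.61, limma adjusted p = 0.0231). Mmp9 rose (0.76) without a call on leaving out Mmp14 knockout replicate 2 (adjusted p = 0.0706) or wild type replicate 1 (0.0624). Mmp11 fell (−0.69, and −0.32 at its second probe set) without a call on leaving out Mmp14 knockout replicate 1 (0.0801).

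A list drawn up around MT1-MMP substrates held 22 genes, and cleavage of each product by MT1-MMP was not checked here. Of the 22, 21 were measured and 19 passed the filter. Of these, 2 were higher (6.2% of all genes), 4 lower (5.12% of all genes) and 13 not called by limma (median −0.12). Acan, the cartilage proteoglycan gene (−1.97), and the receptor gene Fgfr2 (−0.94) fell, and the transglutaminase gene Tgm2 rose (1.34), and these 3 calls held when any single array was left out. Ccn2, a matricellular growth factor gene, fell (−0.64) and was called without wild type replicate 1, but not without Mmp14 knockout replicate 1 (adjusted p = 0.0568), Mmp14 knockout replicate 2 (0.0764) or wild type replicate 2 (0.0525). The fibrillar collagen genes Col1a1 (−0.16), Col1a2 (−0.20), Col2a1 (−0.08) and Col3a1 (−0.10), named after their values were seen, were not called. Col2a1 averaged 10.44 log2 in knockout and 10.52 log2 in wild type. Cartilage genes were not among the markers used to check the stromal label.

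Of 15 measured genes of skeletal stem and stromal identity, all tested, 4 were higher (6.2% of all genes), 1 lower (5.12% of all genes) and 10 not called (median −0.01). The markers used to check the stromal label are all among these 15, so their calls are counted again here. Lepr, the leptin receptor gene of marrow stroma, fell (−2.26), and the chemokine gene Cxcl12 (1.81) and the receptor gene Pdgfra (1.77) rose. Cd200, a surface glycoprotein gene, rose (1.46) without a call on leaving out wild type replicate 1 (adjusted p = 0.0739) or wild type replicate 2 (0.0572). These shifts of stromal markers were measured in the same 4 arrays as the falls of Timp1 and Timp3, and their part in those falls was not tested.

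**Figure D3:**
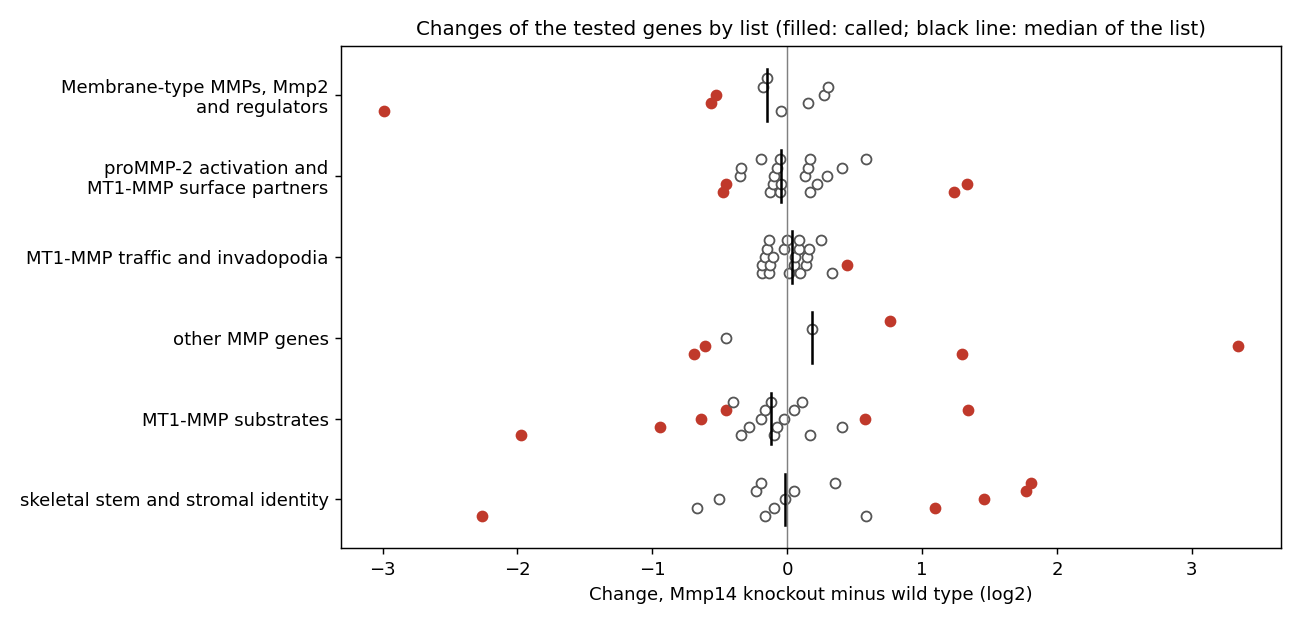
Change of each tested gene (x axis, log2, knockout minus wild type) by list (y axis); filled points passed the test and the black line is the median of the list. The list medians lie between −0.15 and 0.18, and the points furthest from 0 are Mmp13 at 3.34 and Mmp14 at −2.99.

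The calls of the inhibitors depended on the arrays kept, on the threshold and on how the values were processed. Over 15 alternatives, the change of Timp1 ran from −0.65 to −0.48 with adjusted p-values from 0.00241 to 0.168, and 7 alternatives ended the call. The change of Timp3 ran from −0.64 to −0.42 with adjusted p-values from 0.00572 to 0.215, and 9 alternatives ended the call. Mmp14 kept its call in all 15, with changes from −3.03 to −2.95.

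**Figure D4:**
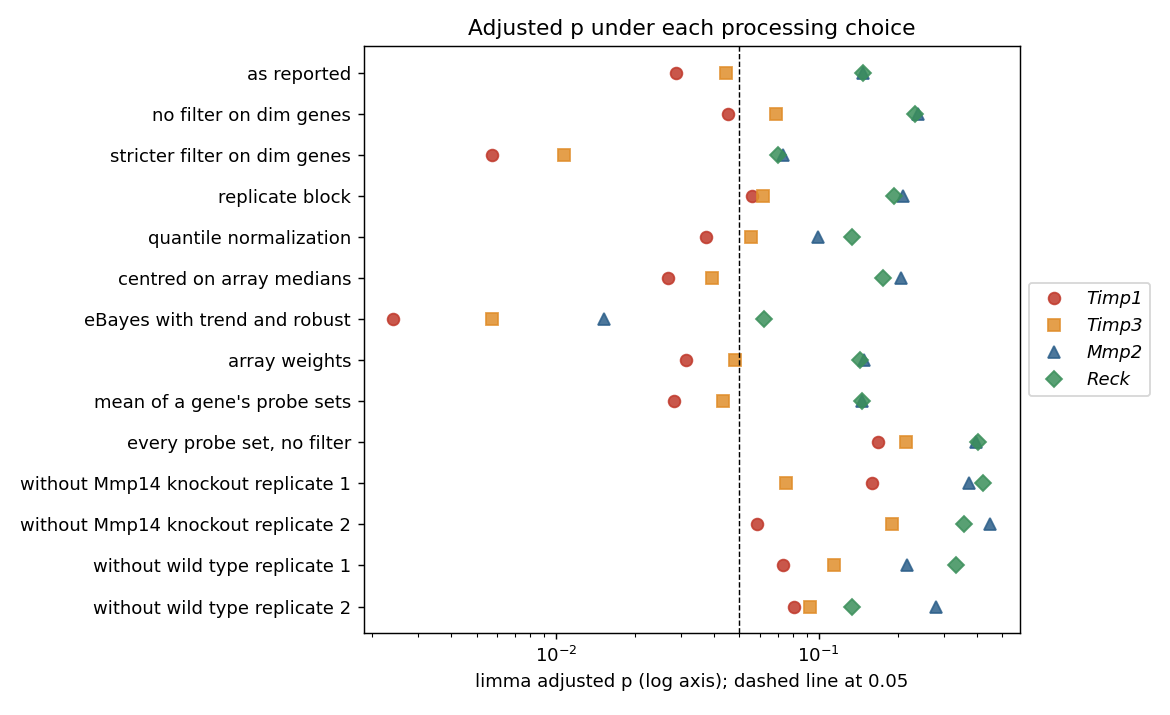
Limma adjusted p (x axis, log scale) of Timp1, Timp3, Mmp2 and Reck under each processing choice (y axis), with a dashed line at 0.05. Timp1 and Timp3 cross to the right of the line whenever 1 array is left out, and Mmp2 crosses to the left only with trend and robust variance estimation.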

How the data were processed

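Gene expression was measured on 4 arrays, 2 of Mmp14 knockout and 2 of wild-type SSCs. Per the labels, cDNA made from 10 ng of total RNA was labelled with biotin (3.75 µg of cDNA). The authors deposited a table of log2 intensities with 41345 probe sets and 4 arrays. Limma and oligo are named in the submitters' processing notes, without version or role, and the normalization is not given in the sources used here. Precision is limited by the number of arrays.

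Of the probe sets, 23521 had 1 gene symbol, 1814 several and 16010 none listed. Each gene was represented by its probe set of highest mean. Those whose mean reached 2.34 log2 were tested with limma 3.58.1 in R 4.3.3 (lmFit and eBayes, two-sided, 2 residual degrees of freedom), with Benjamini-Hochberg adjustment over 12708 genes, and called at an adjusted p below 0.05. The fit was also run on simulated data, but the outcome is not reported here and is no support for the calls. With an array left out, the lone array of a group is assumed to vary like the other group.

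The genes, lists and naming rule were chosen with earlier results of these data known. All 10 genes were named, then up to 4 genes of each list, called genes first and by size of change. The numbers in the titles are not said to mark a shared animal or day, so they were not treated as pairs. Deviations of same-numbered arrays correlated at −0.04. Motifs were searched in RefSeq promoters of GRCm38.p6. Alternatives covered the filter, the replicate block, normalization, the variance model, array weights, probe sets, each array left out and the threshold.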

Additional observations from a re-analysis of the deposited data

How the results depend on the processing

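Leaving out 1 array gave 687 to 1131 genes called, against 1439 with all 4, and each time 1 of the 10 genes studied, against 3. It left 13 to 15 called genes over the lists, against 20. With the replicate number as a block, 1 of the 10 genes was called: the adjusted p became 0.0558 for Timp1 and 0.0612 for Timp3, and Mmp14 kept its call. With every probe set in 1 fit, 218 probe sets, 1 of the 10 genes and 6 list genes were called. At an adjusted p below 0.01 these counts were 459 genes, 1 of the 10 and 9 list genes, and at 0.1 they were 2365 genes. Trend and robust estimation gave 31 list genes and called Mmp2. The change of Mmp24 ran from −0.46 without Mmp14 knockout replicate 1 to 0.10 without Mmp14 knockout replicate 2. The fits with an array left out had fewer samples, and the fit of every probe set tested more features. The block, variance model and threshold alternatives used the same arrays and genes as the main fit. Why counts and calls differed between alternatives was not tested. Mmp14 kept its direction and call in all 15 alternatives, Mmp16, Mmp17, Timp2 and Reck stayed uncalled with the same sign in each alternative in which they were tested, and Timp1 and Timp3 kept their direction. With 2 arrays a group and no detection calls, changes of dim genes (Mmp24, Mmp17, Timp4) are limited by signal over background.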
